A study of Homo sapiens with 6 samples.

Results

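Glycolysis and the transcriptional response to low oxygen were followed in A549 cells through 35 named genes: 17 glycolytic enzymes, 5 kinases that control the pathway, 4 regulators of the hypoxia-inducible factors (HIF) and 9 genes that HIF is known to induce. Of these, 33 were row symbols of a count table of 19876 genes, and EGLN3 and CA12 were not analysed here. The filter on low counts left 32 members and 13567 genes in all for testing. CA9 was the member that did not reach it.

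A549 is an established wild-type line of human lung adenocarcinoma. The cells received either rhTR11B or, as the negative control, phosphate-buffered saline (PBS), with 3 libraries per group. The labels leave the name rhTR11B unexplained and state neither its dose nor how long it was applied; TR11B is UniProt's mnemonic for osteoprotegerin. Both groups grew in DMEM with 10% fetal bovine serum under 5% CO2. The labels mention no low-oxygen arm, so the hypoxia genes were measured in cells that all shared this culture. The replicates are called biological in the labels, which do not say that they came from separate cultures, so each p-value reflects library-to-library spread that may be technical. In these bulk libraries, fewer cells with a transcript and less of it per cell cannot be told apart.

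Glycolysis splits glucose into pyruvate in the cytosol, and lactate dehydrogenase turns pyruvate into lactate when it is not burned in mitochondria. Tumour cells often run the pathway at a high rate even with oxygen present. When oxygen falls, prolyl hydroxylases such as EGLN1 no longer mark the HIF alpha subunits HIF1A and EPAS1 for destruction, and HIF then binds short DNA elements with the core ACGTG or GCGTG. Its known targets include most glycolytic enzymes, the pyruvate dehydrogenase kinase PDK1 and genes for blood vessel growth, acid handling and mitophagy such as VEGFA, CA9 and BNIP3. HIF alpha is controlled mainly as a protein, which RNA counts do not measure.

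With these elements in view, the HIF core can be read in the promoters of enzymes in this set and of further hypoxia targets that passed the test of the rhTR11B comparison. The sequences below are RefSeq windows on GRCh38.p14, from 250 bases before to 50 bases after a transcript start, written 5′ to 3′ along the gene. LDHA has 2 such windows, and the most upstream one is shown. Capitals mark ACGTG or GCGTG on either strand, so that the reverse complements CACGT and CACGC are capitals too. LDHA and PGK1 stand for enzymes whose RNA did not pass the test, and PLOD2, ERO1A and WSB1 for the hypoxia targets outside the member set that did; all were picked with their values known.
LDHA: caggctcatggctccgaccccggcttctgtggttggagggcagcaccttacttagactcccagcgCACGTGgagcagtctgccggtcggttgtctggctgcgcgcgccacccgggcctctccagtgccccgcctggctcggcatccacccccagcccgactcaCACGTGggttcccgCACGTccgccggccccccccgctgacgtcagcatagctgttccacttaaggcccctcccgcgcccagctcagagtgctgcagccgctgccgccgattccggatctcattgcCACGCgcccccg
PGK1: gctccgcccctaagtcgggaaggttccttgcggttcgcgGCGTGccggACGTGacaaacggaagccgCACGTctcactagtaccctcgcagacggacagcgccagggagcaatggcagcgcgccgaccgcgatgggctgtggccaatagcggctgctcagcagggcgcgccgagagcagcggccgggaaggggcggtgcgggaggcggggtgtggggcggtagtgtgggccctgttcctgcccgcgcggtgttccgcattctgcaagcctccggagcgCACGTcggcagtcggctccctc
PLOD2: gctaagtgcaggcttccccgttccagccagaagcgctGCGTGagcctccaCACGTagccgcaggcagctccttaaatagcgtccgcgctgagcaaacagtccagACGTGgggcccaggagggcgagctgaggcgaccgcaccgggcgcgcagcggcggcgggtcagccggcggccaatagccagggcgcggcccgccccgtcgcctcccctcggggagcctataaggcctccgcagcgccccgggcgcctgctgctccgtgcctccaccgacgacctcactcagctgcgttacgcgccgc
ERO1A: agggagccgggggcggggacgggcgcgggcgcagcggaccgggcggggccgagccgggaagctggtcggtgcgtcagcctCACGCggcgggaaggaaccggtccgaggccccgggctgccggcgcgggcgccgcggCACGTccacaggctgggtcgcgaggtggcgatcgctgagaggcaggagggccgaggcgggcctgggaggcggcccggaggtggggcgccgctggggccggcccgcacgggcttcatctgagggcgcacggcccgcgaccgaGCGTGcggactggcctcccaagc
WSB1: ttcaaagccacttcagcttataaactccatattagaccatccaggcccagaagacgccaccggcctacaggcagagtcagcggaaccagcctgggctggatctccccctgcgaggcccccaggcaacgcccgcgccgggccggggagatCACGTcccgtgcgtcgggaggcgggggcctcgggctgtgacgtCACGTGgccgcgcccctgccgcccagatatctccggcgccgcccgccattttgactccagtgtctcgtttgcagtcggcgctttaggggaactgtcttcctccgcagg
The windows lie at chr11:18394313-18394612 on the plus strand for LDHA, chrX:78103998-78104297 on the plus strand for PGK1, chr3:146161135-146161434 on the minus strand for PLOD2, chr14:52695509-52695808 on the minus strand for ERO1A and chr17:27293864-27294163 on the plus strand for WSB1. Counting both strands, so that the palindrome CACGTG counts on each, LDHA held 5 matches to ACGTG and 1 to GCGTG, PGK1 held 3 and 1, PLOD2 held 2 and 1, ERO1A held 1 and 2, and WSB1 held 3 and 0. Of 35116 promoter windows in the table, 21.4% held ACGTG, 36.5% held GCGTG and 48.4% held at least one of them. Windows were found for 29 of the 33 members in the count table, without PFKFB2, VEGFA, BNIP3L and NDRG1. They came to 53 windows, and 37 of the 53 (69.8%) held at least one core. The share was 62.2% of 37 windows of the 17 glycolytic enzymes and 6 of 6 windows of 5 hypoxia targets. In the list of other hypoxia targets 30 of 33 windows (90.9%), from 25 genes, held one. A gene with more than 1 start counts more than once in these shares. The windows of all genes were not matched to the lists for base composition or expression. A match describes the letters of the window, and binding was not measured.

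With rhTR11B, edgeR's quasi-likelihood test called 0 of the 32 tested members higher and 0 lower at a Benjamini-Hochberg adjusted p under 0.05. Over all tested genes 2.92% were called higher and 0.678% lower, 3.6% together. At an unadjusted p under 0.05 there was 1 member above PBS, VEGFA, and there were 4 below it, PGAM1, LDHB, ENO1 and ADM. Over all tested genes 13.8% were above and 10.3% below at that p, 24.2% together. The DESeq2 Wald test called 2 members lower, PGAM1 (adjusted p = 0.0295) and LDHB (adjusted p = 0.0300), and 0 higher. Of the 11724 genes to which DESeq2 gave an adjusted p it called 6.49% higher and 2.95% lower. Limma-voom called 0 members in either direction, where it called 2.56% of all tested genes higher and 0.627% lower. At its unadjusted p under 0.05 there were 1 member higher and 5 lower. Of all 13567 tested genes 1841 were higher and 1433 lower at that p. The log2 fold changes of rhTR11B over PBS ran from -0.32 for ALDOC to 0.22 for ENO2, and the median size of the change was 0.06, against 0.12 over all tested genes. The members and all tested genes were not matched for abundance, so these sizes do not show that the members were steadier. The 95% interval of the fold change lay wholly inside 1.25-fold in either direction for 25 of 32 members and inside 1.5-fold for 31. The exceptions to 1.25-fold were PGAM1, LDHB, ADM, VEGFA, ENO2, ANKRD37 and ALDOC, and ALDOC was the exception to 1.5-fold. Over all 13567 tested genes the interval lay inside 1.25-fold for 7211 and inside 1.5-fold for 10800. The intervals themselves were narrower for the members, with a median half-width of 0.143 in log2 against 0.168 over all tested genes.

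**Figure D1:**
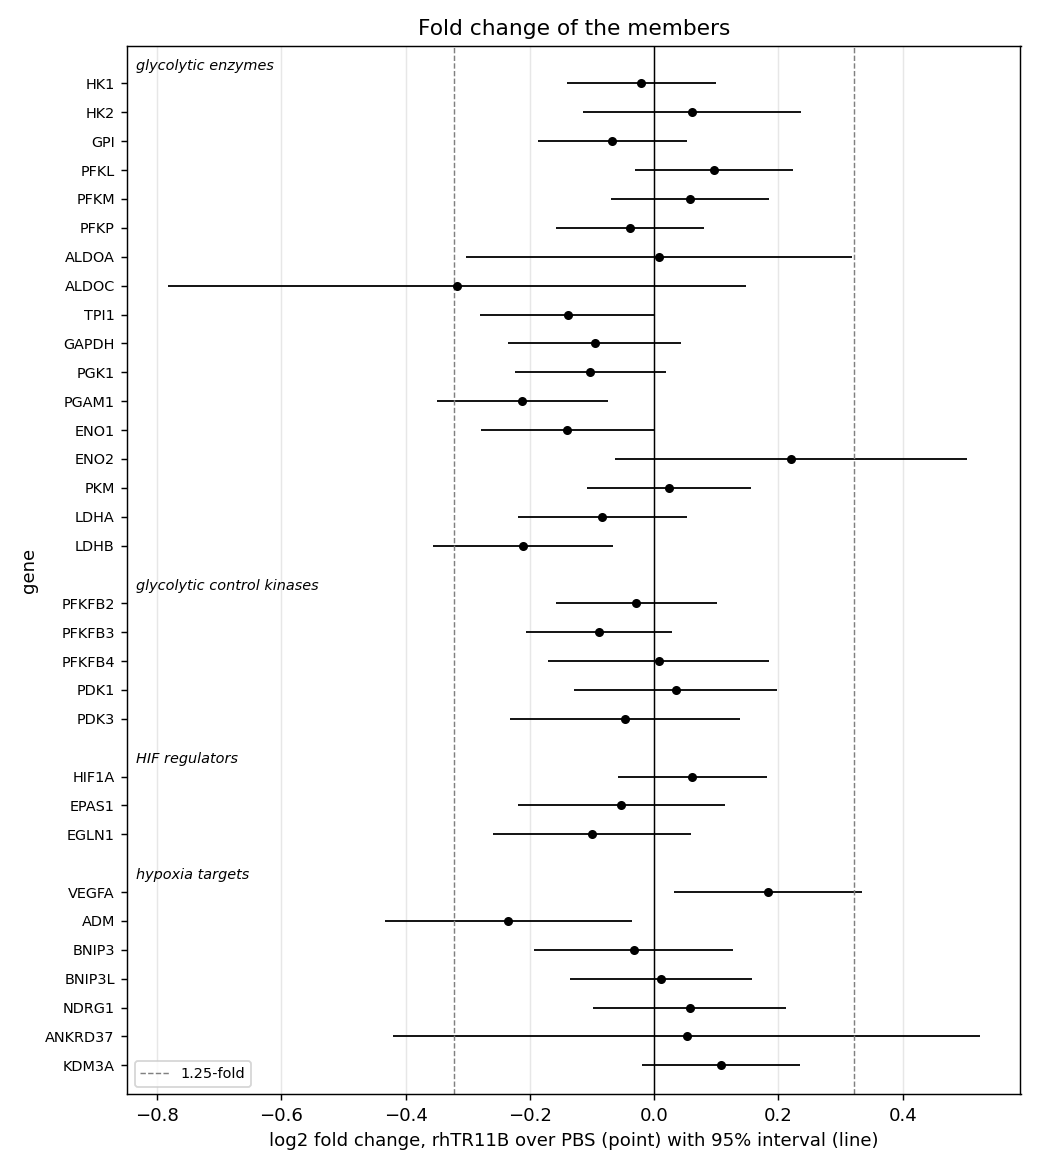
Log2 fold change of rhTR11B over PBS (horizontal axis) for the 32 tested members, by role, with the 95% interval as a line and 1.25-fold marked by dashed lines. The points lie between -0.32 and 0.22, and none has an adjusted p under 0.05.

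The enzymes and the hypoxia targets lay on different sides of 0, both by little. The 17 enzymes had a median log2 fold change of -0.07, with 11 of 17 (64.7%) below 0, and the 7 tested hypoxia targets had a median of 0.05, with 5 of 7 above 0. All tested genes had a median of 7.3e-05, with 50% below 0. In 6 of the 17 enzymes all rhTR11B libraries lay below all PBS libraries, in 0 above, and in 2 of the 7 targets they lay above. Of all 32 tested members 7 lay wholly below and 3 wholly above. Over all tested genes 14% lay wholly below and 15.1% wholly above, 29.1% together. Because members are not replicates and were chosen with earlier results of these data known, no test was made between the groups of genes. With 1 library left out the median ran from -0.09 to -0.05 for the enzymes. For the targets it ran from 0.0031 without rhTR11B replicate 1 to 0.10 without PBS replicate 3, so its distance from 0 rested on single libraries.

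**Figure D2:**
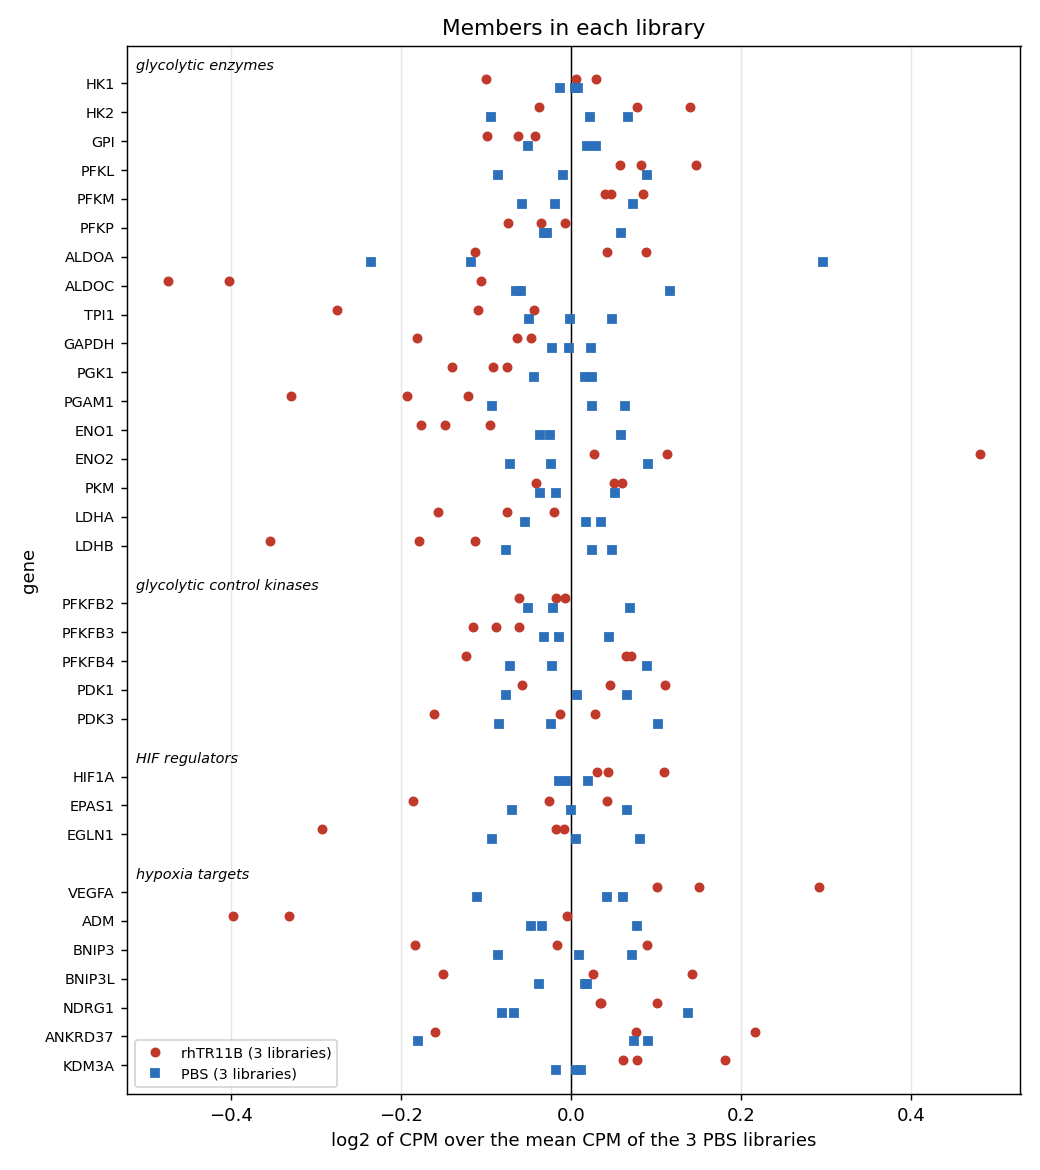
Each tested member in each library as log2 of its CPM (read counts relative to the TMM-scaled library size) over the mean CPM of the 3 PBS libraries, with rhTR11B circles above PBS squares in each row. The rhTR11B libraries lie wholly to the left of the PBS libraries for ALDOC, GAPDH, PGK1, PGAM1, ENO1, LDHB and PFKFB3 and wholly to the right for HIF1A, VEGFA and KDM3A. The groups overlap for 22 of the 32 members. Over all tested genes 14% lie wholly below and 15.1% wholly above.

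The libraries also differed as a whole, which touches every comparison here. Totals were 36315751 to 36992958 counts with rhTR11B and 37203313 to 38148838 with PBS. The 13 mitochondrially encoded genes took 7.88% to 10.4% of the counts with rhTR11B and 6.63% to 7.71% with PBS. The 83 ribosomal protein symbols took 3.86% to 4.58% with rhTR11B and 5.01% to 5.16% with PBS. The highest mitochondrial and the lowest ribosomal share were those of rhTR11B replicate 3. The glycolytic enzymes together took 1.33%, 1.33% and 1.21% of the counts in rhTR11B replicates 1, 2 and 3, against 1.36%, 1.40% and 1.43% in PBS replicates 1, 2 and 3. With the mitochondrially encoded genes left out 0 members were called, as with them, and the enzyme median was -0.06; beyond this the part of these shifts in the members' values was not tested. Of the markers fixed for A549 and epithelial cells, KRT8 had 885 to 924 CPM with rhTR11B and 897 to 961 with PBS, and KRT18 and NQO1 were likewise abundant. KRT19, EPCAM and AKR1C3 reached at most 0.274 CPM in any library, although A549 is an epithelial line, and AKR1B10 and AKR1C1 were not analysed here. The summed markers of fibroblasts were 4.29 to 6.46 CPM with rhTR11B and 2.75 to 3.70 with PBS, mostly COL1A1 (log2 fold change 0.62, adjusted p = 0.0511 by edgeR), and their part in the results was not tested. Blood cell markers summed to 3.59 to 4.71 CPM with rhTR11B and 2.75 to 3.98 with PBS, mostly CD68. Endothelial markers summed to 0.192 to 0.241 CPM with rhTR11B and 0.131 to 0.416 with PBS.

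By FPKM, the main enzymes from the triose steps onward stood above those of the first hexose steps in A549 cells. On the per-length scale of FPKM, GAPDH, which oxidises glyceraldehyde phosphate, had the highest level of the members, 1634 ± 101 with rhTR11B and 1765 ± 24.2 with PBS (SD, n = 3 each). ENO1, the main enolase, followed with 1022 ± 35.1 FPKM in rhTR11B cells and 1138 ± 35.4 in PBS cells, and LDHA had 728 ± 40.02 with rhTR11B and 779.97 ± 27.2 with PBS. The order of these 3 was the same in both groups, with gaps larger than the spread. The triose isomerase TPI1, the pyruvate kinase PKM and LDHB came next at 445 ± 39.8, 452 ± 22.6 and 404 ± 37.8 FPKM with rhTR11B and 495 ± 15.4, 449 ± 12.3 and 474 ± 21.1 FPKM with PBS. These 3 neighbours are within each other's spread in rhTR11B cells. PGAM1 and PGK1 had 130.3 ± 10.4 and 114 ± 3.79 FPKM with rhTR11B and 153 ± 8.31 and 123 ± 3.21 with PBS. PFKL, PFKP, GPI and HK1 of the hexose steps had mean levels between 25.5 and 55.3 FPKM over all 6 libraries and PFKM 13.3, and HK2, ENO2 and ALDOC lay between 1.01 and 3.10. The place of GPI depends on the gene length used, which was 11043 bases for GPI and 1913 for PGAM1. By mean CPM over all 6 libraries GPI, at 407, lay above PGAM1, at 271, and below PGK1, at 570.

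ALDOA, the aldolase of most tissues, was listed at a mean of only 209 counts per library and 2.61 FPKM. Its annotated span (chromosome 16, 30064279 to 30070420 on GRCh38.p14) is covered to 99.9% by that of another gene in the table, LOC112694756, itself at a mean of 55.2 counts. How reads shared by these genes were counted is not given in the sources used here, so the listed level of ALDOA cannot be read as its abundance. Copies matter for others too: RefSeq lists 65 pseudogene symbols of GAPDH, 46 of BNIP3, 13 of PGAM1 and 6 of LDHA, and 0 of these are rows of the table, and how reads of near-identical sequence were assigned is not given in the sources used here, so their levels are uncertain.

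**Figure D3:**
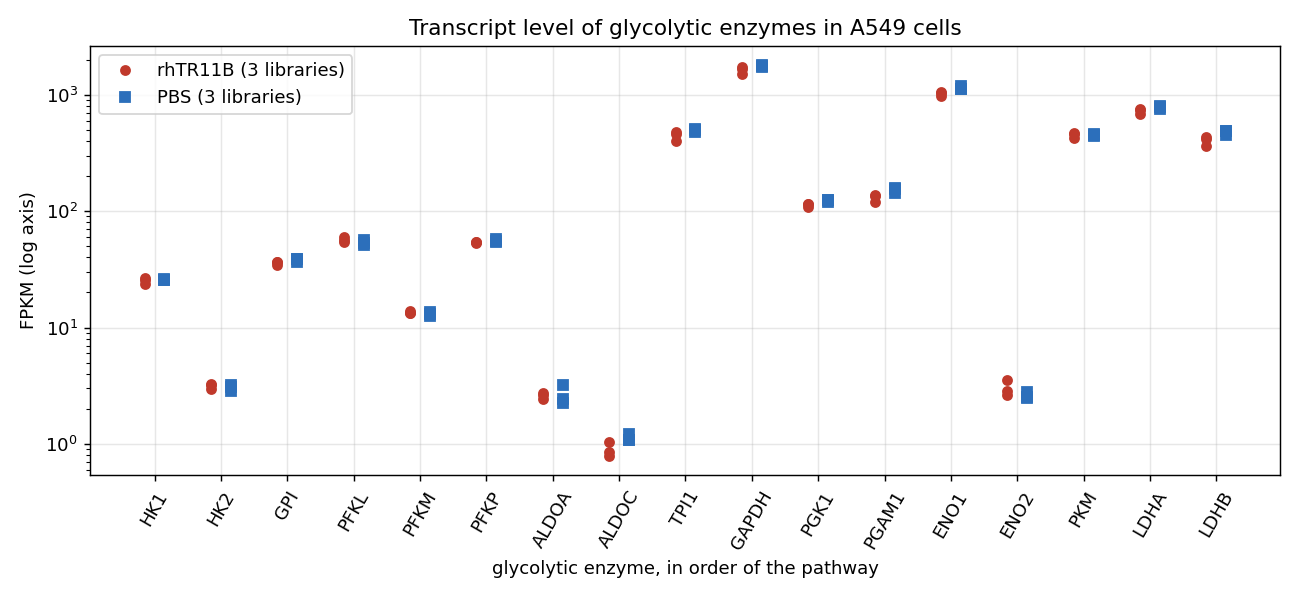
FPKM (log axis) of the 17 glycolytic enzymes in pathway order, with rhTR11B circles left of PBS squares, 3 libraries each. The members span from 1.01 FPKM for ALDOC to 1699 for GAPDH as means over all libraries, and the groups sit close together for each gene.

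The first steps commit glucose to the cell. HK1, the broadly expressed hexokinase, had 143, 145 and 133 CPM in rhTR11B replicates 1, 2 and 3, against 141, 143 and 143 in PBS replicates 1, 2 and 3. HK2, the hexokinase known for its induction in tumours, had 18.8, 17.3 and 19.6 CPM with rhTR11B, against 16.7, 18.6 and 18.1 with PBS. Both pairs of groups overlapped, with log2 fold changes of -0.02 (SE 0.06) and 0.06 (SE 0.08). GPI, which isomerises glucose phosphate, had 404, 399 and 389 CPM with rhTR11B, against 402, 422 and 425 with PBS (log2 fold change -0.07, SE 0.06, adjusted p = 0.497 by edgeR). The phosphofructokinases, which catalyse the committed step, had log2 fold changes of 0.10 for PFKL, 0.06 for PFKM and -0.04 for PFKP, with overlapping groups and adjusted p from 0.344 to 0.724.

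TPI1, GAPDH and PGK1, which handle the trioses, all had negative log2 fold changes that did not pass the test. TPI1 had 893, 853 and 760.3 CPM with rhTR11B, against 889, 919 and 952 with PBS (log2 fold change -0.14, SE 0.07, adjusted p = 0.212). The lowest of its 6 values was rhTR11B replicate 3, and replicate 1 overlapped the PBS range. GAPDH (chromosome 12, 6534517 to 6538371) had 2909, 2941 and 2681 CPM with rhTR11B, against 2992, 3035 and 3090.5 with PBS. The groups did not overlap, yet the difference of -0.10 (SE 0.07, adjusted p = 0.393) did not pass, and its 95% interval ran from 0.850 to 1.03-fold. PGK1, which makes the first ATP of the pathway, had 560.1, 554 and 536 CPM with rhTR11B, against 573, 597 and 601 with PBS (log2 fold change -0.10, SE 0.06, adjusted p = 0.288). All 3 rhTR11B values lay below the lowest PBS value.

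PGAM1 and LDHB had the lowest p-values of the set. PGAM1 (chromosome 10, 97426191 to 97433444), the phosphoglycerate mutase, had 267, 254 and 231 CPM in rhTR11B replicates 1, 2 and 3, against 272, 295 and 303 CPM in PBS replicates 1, 2 and 3. LDHB (chromosome 12, 21635342 to 21657842), the lactate dehydrogenase subunit known for favouring pyruvate formation, had 852, 814 and 720.2 CPM with rhTR11B, against 874, 937 and 952 with PBS. In both genes every rhTR11B library lay below every PBS library, with replicate 3 lowest. The log2 fold change was -0.21 (SE 0.07, adjusted p = 0.0685) for PGAM1 and -0.21 (SE 0.07, adjusted p = 0.0773) for LDHB by edgeR. Without rhTR11B replicate 1 they passed (adjusted p = 0.0309 and 0.0346), while over the 6 fits with 1 library left out the adjusted p reached 0.253 and 0.268.

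ENO1 (chromosome 1, 8861000 to 8878686) had 3351, 3229 and 3167 CPM with rhTR11B, against 3489.8, 3519 and 3728 with PBS (log2 fold change -0.14, SE 0.07, adjusted p = 0.204). ENO2, the enolase typical of neurons, had 6.06, 6.43 and 8.31 CPM with rhTR11B, against 6.34, 5.66 and 5.85 with PBS (0.22, SE 0.14, adjusted p = 0.331), with replicate 3 farthest above the PBS range. The enolase groups did not overlap for ENO1 and overlapped for ENO2. PKM, which yields pyruvate, had 1553, 1564 and 1458 CPM with rhTR11B and 1463, 1482 and 1555 with PBS, and its fold change of 1.02 had a 95% interval from 0.928 to 1.11. LDHA (chromosome 11, 18394563 to 18408425), which reduces pyruvate to lactate and whose promoter window is among those shown, had 1913, 1841 and 1740.1 CPM with rhTR11B, against 1868, 1988 and 1964 with PBS. Its groups overlapped (log2 fold change -0.08, SE 0.07, adjusted p = 0.455). ALDOC, the aldolase of brain, was low, with 66, 55 and 50 counts with rhTR11B against 79, 72 and 71 with PBS (-0.32, SE 0.22, adjusted p = 0.398).

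Isozyme makeup was compared as each gene's share of the summed FPKM of its step, without a test. LDHA made up 63.7%, 63.9% and 65.4% of lactate dehydrogenase in rhTR11B replicates 1, 2 and 3, against 62.6%, 62.4% and 61.7% in PBS replicates 1, 2 and 3, so that the groups did not overlap. PFKL made up 45.8% ± 1.17 of phosphofructokinase with rhTR11B and 43.8% ± 0.811 with PBS, and PFKP 43.3% ± 1.26 with rhTR11B and 45.5% ± 0.603 with PBS (SD, n = 3 each), also without overlap. HK1 held 87.1% ± 1.49 of the hexokinase level with rhTR11B and 88.1% ± 0.426 with PBS, and ENO1 99.2% ± 0.158 of the enolase level with rhTR11B and 99.4% ± 0.0811 with PBS. These groups overlapped. Shares within a step sum to 100%, so a higher LDHA share and a lower LDHB share are one observation. A lack of overlap was also common among single genes, at 29.1% of all tested genes by CPM.

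**Figure D4:**
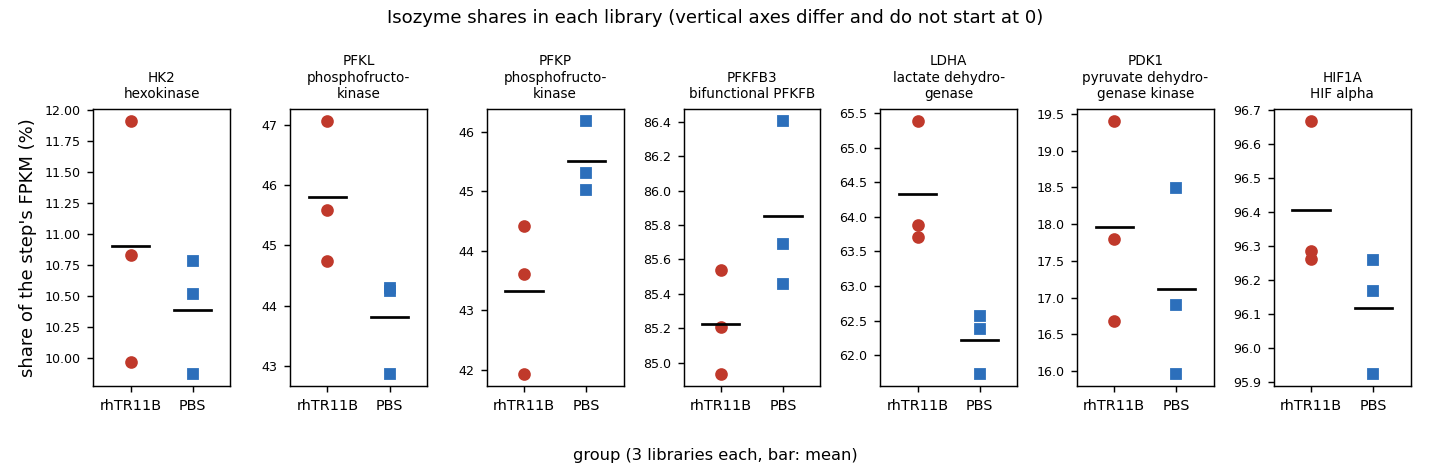
Share of a step's summed FPKM (%, vertical axes that differ and do not start at 0) held by 7 members in each library, rhTR11B circles left of PBS squares, bars at the means. LDHA, PFKL and HIF1A lie higher and PFKP lower with rhTR11B, with no overlap, and for HK2, PFKFB3 and PDK1 the groups overlap. For HIF1A the gap is very narrow, with 96.262% in rhTR11B replicate 1 against 96.258% in PBS replicate 1. By CPM, the groups do not overlap for 29.1% of all tested genes.

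The control kinases had a median log2 fold change of -0.03, with 3 of 5 below 0. PFKFB3, which makes the sugar bisphosphate that activates phosphofructokinase, had 248, 253 and 243 CPM in rhTR11B replicates 1, 2 and 3, against 261, 258 and 272 in PBS replicates 1, 2 and 3. The groups did not overlap, but the log2 fold change was -0.09 (SE 0.06, adjusted p = 0.349). The related PFKFB2 and PFKFB4 had -0.03 and 0.01. PDK1, which closes the entry of pyruvate into the mitochondrial cycle, had 22.2, 24.98 and 23.9 CPM with rhTR11B, against 23.3, 24.2 and 21.9 with PBS (0.03, SE 0.08, adjusted p = 0.823), and PDK3 had -0.05. For all 5 kinases the 95% interval lay inside 1.25-fold, as it did for 7211 of all 13567 tested genes.

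Of the regulators, HIF1A (chromosome 14, 61695513 to 61748258) had 489, 516 and 493 CPM with rhTR11B, against 473, 485 and 476 with PBS. Its 3 rhTR11B values lay above the PBS range by little (log2 fold change 0.06, SE 0.06, adjusted p = 0.538). The span of HIF1A-AS3, another row of the table, covers 61.997% of it, and the strand setting of the counting is not given in the sources used here. EPAS1, the other alpha subunit, had 24.7, 25.9 and 22.1 CPM with rhTR11B, against 23.9, 25.1 and 26.3 with PBS (-0.05, SE 0.08, adjusted p = 0.729), so that HIF1A made up 96.4% ± 0.227 of the summed FPKM of both with rhTR11B and 96.1% ± 0.172 with PBS. EGLN1, the main oxygen sensor among the prolyl hydroxylases, had 66.0, 66.4 and 54.5 CPM with rhTR11B, against 67.1, 70.7 and 62.6 with PBS (-0.10, SE 0.08, adjusted p = 0.440). Its low value was again rhTR11B replicate 3.

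Among the hypoxia targets 2 secreted factors had the lowest p-values and stood on opposite sides of 0. VEGFA (chromosome 6, 43770211 to 43786487), which drives blood vessel growth, had 43.7, 45.3 and 49.9 CPM in rhTR11B replicates 1, 2 and 3, against 42.0, 37.7 and 42.5 in PBS replicates 1, 2 and 3. ADM (chromosome 11, 10305073 to 10307397), the vasodilator adrenomedullin, had 18.6, 17.8 and 23.3 CPM with rhTR11B, against 22.7, 24.7 and 22.9 with PBS. The VEGFA groups did not overlap, while ADM in rhTR11B replicate 3 lay inside the PBS range and the other 2 lay below it. By edgeR the log2 fold change was 0.18 (SE 0.07, adjusted p = 0.130) for VEGFA and -0.23 (SE 0.09, adjusted p = 0.139) for ADM. Without rhTR11B replicate 3 ADM passed, at -0.36 (adjusted p = 0.0134), and over the other fits with 1 library left out its adjusted p reached 0.378.

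The remaining targets showed no call. BNIP3, which tags mitochondria for removal, had 42.3, 39.3 and 34.99 CPM with rhTR11B and 37.5, 41.8 and 40 with PBS (log2 fold change -0.03, SE 0.08), and its relative BNIP3L had 0.01 (SE 0.07). NDRG1, a stress gene induced by hypoxia, had 34.3, 34.3 and 35.9 CPM with rhTR11B, against 31.95, 31.6 and 36.8 with PBS (0.06, SE 0.07, adjusted p = 0.681). KDM3A, a histone demethylase, had 65.9, 70.7 and 65.1 CPM with rhTR11B, against 62.9, 61.6 and 62.7 with PBS. It was higher in 3 of 3 rhTR11B libraries, at 0.11 (SE 0.06, adjusted p = 0.285). ANKRD37, a HIF-induced ankyrin repeat gene, had 71, 56 and 63 counts with rhTR11B, against 66, 57 and 68 with PBS (0.05, SE 0.22). CA9, the carbonic anhydrase that tumours express under low oxygen, had 0, 3 and 0 counts with rhTR11B and 1, 0 and 0 with PBS, too few for a fold change.

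Genes that work beside the enzymes were measured in the same libraries. Their lists were chosen with earlier results of these data known, so the counts describe these genes and do not show enrichment. Of 8 tested genes of glucose uptake and lactate export all had positive log2 fold changes, as 50% of all tested genes did, with a median of 0.27. By edgeR's test 0 of the 8 passed, and 5 were higher at an unadjusted p under 0.05, where 13.8% of all tested genes were. Limma-voom also called 0 of them. The DESeq2 Wald test called 4, all higher, where it called 6.49% of genes higher. The glucose transporter SLC2A1, a known HIF target, had 53.2, 53.5 and 68.7 CPM with rhTR11B, against 49.6, 44.2 and 48.0 with PBS (0.31, SE 0.09, adjusted p = 0.0539). The lactate exporter SLC16A3 had 217, 212 and 253 CPM with rhTR11B, against 202, 168 and 197 with PBS (0.27, SE 0.08, adjusted p = 0.0572). In both genes all rhTR11B libraries lay above all PBS libraries, replicate 3 farthest.

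Where pyruvate enters mitochondria, edgeR and limma-voom called 1 of 12 tested genes lower and 0 higher, where edgeR called 0.678% of all tested genes lower. The DESeq2 Wald test called 1 lower and 1 higher, where it called 2.95% of genes lower and 6.49% higher. MPC2, a subunit of the mitochondrial pyruvate carrier, had 106, 97.2 and 91.9 CPM with rhTR11B, against 115, 120.4 and 115 with PBS (-0.25, SE 0.06, adjusted p = 0.0369). Its partner MPC1 had -0.01. The gene DESeq2 called higher was PC, pyruvate carboxylase, with 27.6, 29.998 and 28.4 CPM with rhTR11B, against 24.4, 22.8 and 24.9 with PBS. PC had a log2 fold change of 0.25 by edgeR (SE 0.07, adjusted p = 0.0583, and 0.0318 by DESeq2). In the pentose phosphate branch, which draws off glucose phosphate for nucleotides, all 7 tested genes were below 0 with a median of -0.03, and edgeR and limma-voom called RPIA alone. RPIA, the ribose phosphate isomerase, fell to 25.6, 24.4 and 22.2 CPM with rhTR11B, against 28.6, 29.7 and 31.1 with PBS (-0.31, SE 0.08, adjusted p = 0.0370). The DESeq2 Wald test called TALDO1, the transaldolase, as well (adjusted p = 0.0330), which had 102.1, 102.3 and 98.1 CPM with rhTR11B, against 110.4, 114 and 119.8 with PBS (-0.19, SE 0.06, adjusted p = 0.0708 by edgeR). Of 4 other tested glycolytic isozymes and of 11 other HIF regulators edgeR, DESeq2 and limma-voom called 0. At an unadjusted p under 0.05 there were 1 isozyme and 3 regulators lower, where 10.3% of all tested genes were lower by edgeR. BPGM had -0.25 (adjusted p = 0.142) and ENO3 0.28 (adjusted p = 0.230), and the elongins ELOC and ELOB, partners of VHL, had -0.23 (adjusted p = 0.105) and -0.15 (adjusted p = 0.167).

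Of 27 other hypoxia targets 3 rose and 0 fell by edgeR and by limma-voom, where edgeR called 2.92% of all tested genes higher. DESeq2 called 4 higher and 0 lower, where it called 6.49% of genes higher and 2.95% lower. The list's median log2 fold change was 0.09, against 7.3e-05 over all tested genes, with 18 of 27 above 0. The list was chosen with earlier results of these data known. These counts therefore describe its genes and do not show enrichment. PLOD2, a lysyl hydroxylase that prepares collagen for cross-linking, had 221, 232 and 267 CPM with rhTR11B, against 205, 201 and 183 with PBS (0.29, SE 0.07, adjusted p = 0.0346). ERO1A, an oxidase of protein folding in the endoplasmic reticulum, had 151, 152 and 165 CPM with rhTR11B, against 129.6, 138 and 125 with PBS (0.25, SE 0.06, adjusted p = 0.0323). WSB1, a ubiquitin ligase component, had 248, 250.1 and 288 CPM with rhTR11B, against 223, 209 and 207 with PBS (0.30, SE 0.07, adjusted p = 0.0231). In all 3 genes the groups did not overlap. Across the 6 fits with 1 library left out PLOD2 and ERO1A passed in 3 and WSB1 in 4, MPC2 in 2 and RPIA in 1. Without PBS replicate 2 or 3 none of the 5 passed, with edgeR adjusted p from 0.105 to 0.196. Without PBS replicate 1 WSB1 alone passed, without rhTR11B replicate 2 MPC2 and RPIA did not, and without rhTR11B replicate 3 RPIA did not. On the authors' FPKM, limma-trend called none of the 5.

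**Figure D5:**
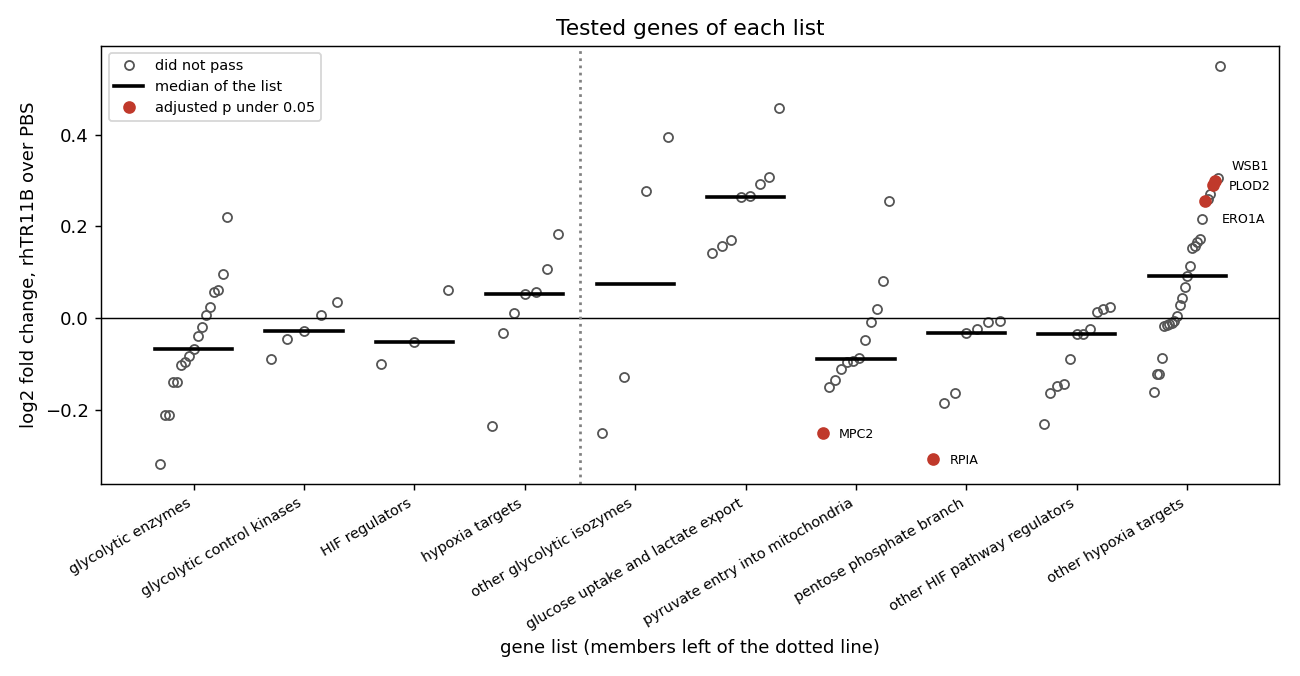
Log2 fold change of rhTR11B over PBS for each tested gene (points) and the median of its list (bars), with the members' 4 roles left of the dotted line. All lists were chosen with earlier results of these data known. The median of the glucose uptake and lactate export list, 0.27, lies highest; filled points have an adjusted p under 0.05: MPC2 and RPIA below 0, and ERO1A, PLOD2 and WSB1 above 0, all outside the members.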

How the data were processed

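Expression was measured by RNA-seq in A549 cells, with 3 rhTR11B and 3 PBS libraries grouped by the treatment label. Per the labels' protocols, RNA came from a TRIzol extraction and the VAHTS Universal V6 kit was used for the libraries. The authors deposited whole-number read counts and FPKM per gene. Per the submitters' processing notes, their tools were fastp, HISAT, HTSeq, R 3.2.0 and DESeq2, with the build GRCh38. The role of each tool, the annotation and the strand setting were not given in the sources used here. With edgeR 4.0.16 in R 4.3.3, filterByExpr (minimum count 10) left 13567 genes. These were TMM-scaled and tested by quasi-likelihood, the model holding treatment and no other term, with Benjamini-Hochberg adjustment over all of them. A gene was called at an adjusted p under 0.05. CPM uses TMM-scaled library sizes, and 95% intervals come from the same fit. The edgeR step was also run on simulated counts in which the changed genes differed by 1.5-fold or more. That run does not show how the test performs at the smaller changes of the members. It also held no shift in composition like that between these libraries. Within a group, the chi-square per degree of freedom between library pairs was 5.33 to 26.1, so none was taken as a duplicate. The pairs with rhTR11B replicate 3 had 23.1 and 26.1, and the other pairs 5.33 to 9.56, so that library differed most from its group. Alternatives were DESeq2 1.42.0, limma 3.58.1 (voom on counts, and trend on log2(FPKM + 1) or log2(FPKM + 0.1)), other scaling and filters, the replicate block, mitochondrial genes left out and each library left out. Coordinates, overlaps and promoters are from RefSeq tables of GRCh38.p14. Members and lists were chosen with earlier results of these data known. By rule, values per library are given for the best known members of each role, for called members and the 3 uncalled members of lowest p, and from each other list the called genes or, with none, the 2 of lowest p are named. Other genes named, and the promoters, were chosen after their values were seen.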

Additional observations from a re-analysis of the deposited data

How the results depend on the processing

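Precision is limited by having 3 libraries per group and, for members with few counts such as ALDOC and ANKRD37, also by depth. With the DESeq2 Wald test and with no low-count filter 2 members were called lower, PGAM1 and LDHB, and with 1 library left out 0 to 2; none was called higher in any fit. The cause was not tested. The enzyme median kept its sign in every alternative, from -0.09 to -0.05 with 1 library left out. The target median was 0.021 with log2(FPKM + 1), with a minimum FPKM or without, and 0.0031 to 0.10 with 1 library left out. Other pathway genes called higher numbered 9 with the DESeq2 Wald test, 10 with no low-count filter, 0 in each limma-trend fit on FPKM (10 to 12 at an unadjusted p under 0.05) and 0 to 10 with 1 library left out, against 3; those called lower numbered 5 with no low-count filter, 0 in each limma-trend fit (7 to 12 unadjusted) and 0 to 3 with 1 library left out, against 2. Small values changed sign: with library size alone ALDOA had -0.0088, PFKFB4 -0.0094 and BNIP3L -0.0047, and on FPKM PFKFB4 had -0.0081 and BNIP3L -0.010 with pseudocount 1, with or without a filter, and -0.011 and -0.011 with pseudocount 0.1. With 1 library left out the ranges were -0.10 to 0.18 for ALDOA, -0.038 to 0.15 for ANKRD37, -0.098 to 0.038 for BNIP3, -0.059 to 0.086 for BNIP3L, -0.10 to 0.0096 for EPAS1, -0.045 to 0.018 for HK1, -0.0050 to 0.078 for PDK1, -0.088 to 0.0078 for PDK3, -0.054 to 0.0075 for PFKFB2 and -0.028 to 0.068 for PFKFB4. Over all genes 396 higher and 92 lower calls became 761 and 346 with DESeq2, 940 and 483 with no low-count filter, 62 and 21 or 64 and 22 on FPKM with pseudocounts 1 and 0.1, 0 and 0 on FPKM with no filter, and 9 to 903 and 3 to 427 with 1 library left out. The labels do not say whether equal replicate numbers pair the samples. Correlations of deviations were -0.10, 0.05 and -0.01 for equal numbers and ran from -0.10 to 0.11 for unequal ones. With 3 libraries per group these values cannot settle whether the samples were paired. With the replicate block 774 and 252 genes, 0 members in either direction (1 higher and 3 lower unadjusted) and 9 higher and 3 lower other pathway genes were called.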
